A study of Mus musculus with 16 samples.

Results

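The 33 genes described here are CC and CXC chemokines, the CX3C chemokine Cx3cl1, chemokine receptors and atypical receptors, listed by symbol, with the neutrophil-attracting ligands of CXCR2 left out. Of these, 31 were measured, namely 25 ligands, 5 receptors (Ccr1, Ccr3, Ccr4, Ccr6 and Cxcr5) and the atypical receptor Ackr3. Cxcr4 and Ackr1 were not analysed here. The 31 genes were part of 17097 genes, each read from its brightest probe set.

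Expression was measured on 1 array for each of 16 tumours. All mice were male C57BL/6 animals aged 5 weeks, and each carried a flank tumour grown under the skin from implanted cells of the mouse hepatocellular carcinoma line Hepa1-6 in 50% Matrigel. Placebo mice (n = 4) received hamster IgG at 10 mg/kg, and AntiPD1 mice (n = 3) received the hamster antibody J43, which blocks the T cell checkpoint receptor PD1, at the same dose, in both cases by 5 injections spaced 3 days apart. Cabozantinib mice (n = 5) received cabozantinib, an oral inhibitor of several receptor tyrosine kinases, at 30 mg/kg each day. Combination mice (n = 4) received cabozantinib and the antibody. The labels do not state whether IgG was given with cabozantinib. Treatment began at a tumour volume of 200 to 300 cubic mm, and the tumours were taken at day 14. All tumours came from 1 transplanted line outside the liver, so the host supplies the leukocytes, vessels and stroma.

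Chemokines are small secreted proteins that guide leukocytes along a gradient through G protein-coupled receptors. Many of them bind several receptors, and atypical receptors bind chemokines without the usual G protein signal and can clear them. In tumours, some ligands are known to recruit monocytes that become macrophages, others T cells, regulatory T cells, eosinophils or B cells. Interferon gamma is a known inducer of Cxcl9 and Cxcl10, cytokines acting through STAT6 induce Ccl17, Ccl11 and Ccl24, and NF-kB induces many ligands after tumour necrosis factor or interleukin 1.

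Genes of the family lie in clusters. In the RefSeq gene order Ccl2, Ccl7, Ccl11, Ccl12 and Ccl8 follow each other on chromosome 11, and so do Ccl5, Ccl9, Ccl6, Ccl3 and Ccl4 farther along it. Ccl22, Cx3cl1 and Ccl17 are neighbours on chromosome 8. RefSeq's promoter table (GRCm38.p6) held 22 of the 31 measured genes. The 250 bases before the start site are shown for Ccl8 and Ccl12, both of which rose with the antibody, for the CCR4 ligands Ccl22, which rose, and Ccl17, which did not pass the test, and for the interferon-inducible Cxcl9 and Cxcl10, which did not pass either. Capitals mark every match, on either strand, to the interferon-stimulated response element GAAANNGAAA, the gamma-activated sequence TTCNNNGAA, the STAT6 element TTCNNNNGAA or the NF-kB element GGGANNNNCC.
Ccl8 promoter (chr11:82114935-82115184, plus strand): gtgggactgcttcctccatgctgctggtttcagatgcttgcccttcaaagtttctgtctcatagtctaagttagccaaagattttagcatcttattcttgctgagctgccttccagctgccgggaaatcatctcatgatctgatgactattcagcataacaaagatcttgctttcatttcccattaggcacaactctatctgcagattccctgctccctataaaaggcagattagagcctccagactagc
Ccl12 promoter (chr11:82101595-82101844, plus strand): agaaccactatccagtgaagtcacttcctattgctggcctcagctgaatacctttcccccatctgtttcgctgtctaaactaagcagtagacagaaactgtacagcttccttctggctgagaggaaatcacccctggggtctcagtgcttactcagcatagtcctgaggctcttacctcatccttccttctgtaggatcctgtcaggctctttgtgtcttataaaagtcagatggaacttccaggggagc
Ccl22 promoter (chr8:94745434-94745683, plus strand): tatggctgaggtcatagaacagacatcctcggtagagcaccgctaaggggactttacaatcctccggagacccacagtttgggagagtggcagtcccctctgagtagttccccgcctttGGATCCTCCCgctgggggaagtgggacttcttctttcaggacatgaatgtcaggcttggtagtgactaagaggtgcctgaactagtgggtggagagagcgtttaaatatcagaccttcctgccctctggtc
Ccl17 promoter (chr8:94810203-94810452, plus strand): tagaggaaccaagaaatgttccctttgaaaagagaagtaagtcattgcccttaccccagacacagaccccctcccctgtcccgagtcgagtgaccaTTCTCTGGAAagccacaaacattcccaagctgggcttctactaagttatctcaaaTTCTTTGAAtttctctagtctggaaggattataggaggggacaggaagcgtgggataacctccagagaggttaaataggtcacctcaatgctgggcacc
Cxcl9 promoter (chr5:92328080-92328329, minus strand): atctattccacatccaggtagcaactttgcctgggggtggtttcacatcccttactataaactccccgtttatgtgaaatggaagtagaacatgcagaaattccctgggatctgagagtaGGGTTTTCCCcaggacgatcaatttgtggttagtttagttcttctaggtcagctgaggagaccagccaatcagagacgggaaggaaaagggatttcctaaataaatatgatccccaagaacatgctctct
Cxcl10 promoter (chr5:92348890-92349139, minus strand): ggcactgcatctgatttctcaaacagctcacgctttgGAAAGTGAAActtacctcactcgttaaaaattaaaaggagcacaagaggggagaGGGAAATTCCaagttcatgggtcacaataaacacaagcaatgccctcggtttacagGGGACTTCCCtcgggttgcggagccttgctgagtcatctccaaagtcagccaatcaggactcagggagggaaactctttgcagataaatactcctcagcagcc
The windows of Ccl8 and Ccl12 held none of these letters, that of Ccl22 held 1 NF-kB match on the minus strand, and that of Ccl17 held 1 gamma-activated and 1 STAT6 match. Cxcl9 had 1 NF-kB match. Cxcl10 had 1 interferon-stimulated match and 2 NF-kB places, of which the second matched on both strands. The search over all 32851 promoters also took in the 50 bases after the start site. Of these promoters, 3.44% held the interferon-stimulated letters, 8.30% the gamma-activated, 6.95% the STAT6 and 20.7% the NF-kB letters. Of the 22 members, searched in the same way, 3 held the first, 3 the second, 1 the third and 9 the fourth. A member with more than 1 promoter was counted once. These matches describe letters only.

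A log2 signal is the unit of all values below, and a difference of 1 on that scale is a doubling. The tests used limma across all 17097 genes with a mean for each group, and a gene is said to have risen or fallen where its Benjamini-Hochberg adjusted p was under 0.05. Array medians ran from 4.92 to 5.13. The mean signal was at or under 4.92 in all 4 groups for Ccl28, Ccr4 and Cxcr5, and in every group but Combination for Ccr3, so these 4 genes are not shown to be above background there. Means under 5.13, also near background, were those of Ccr3 in Combination (5.03), Cxcl13 in Placebo (5.09), and Ccr6 in Placebo (5.00), Cabozantinib (5.05) and AntiPD1 (5.00). The line's liver genes were read in every tumour. Fewer cells of a type cannot be told apart from less RNA per cell in whole tumours. Nothing in the labels says that the tumours of a group came from separate experiments, and p-values cover the spread between these tumours only.

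The tumours differed within their groups. Placebo replicate 2 and Cabozantinib replicate 2 stood low, with mean deviations of the 31 genes from their 16-tumour means of -1.06 and -0.98, and they were the lowest tumour of all for 9 and 12 genes. Combination replicate 2 had the highest mean deviation, 0.68, and was the highest tumour for 8 genes. Skeletal muscle genes were highest in AntiPD1 replicate 2, Cabozantinib replicate 4 and Combination replicate 4, called muscle-rich below, with list means of 11.36, 10.95 and 12.05. Cabozantinib replicate 3, Placebo replicate 3 and Combination replicate 3 followed at 8.87, 7.72 and 7.34, and the remaining tumours lay between 4.30 and 5.64. Adipocyte genes were high in Cabozantinib replicate 2 and in Combination replicates 1 and 2, at 10.02, 9.60 and 8.86, against 5.13 to 6.98 in the other 13 tumours. For Combination against Placebo and for each drug averaged over the other, counts of calls are also given without single tumours and without the adipocyte-rich ones. Without the 3 muscle-rich tumours, counts are given only for the antibody averaged over cabozantinib and for correlated gene pairs. Of 58 differences of single genes recomputed without those 3 tumours, 9 lost the call and 0 gained it. Most of the 58 were not calls with all tumours in, so they had none to lose.

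**Figure D1:**
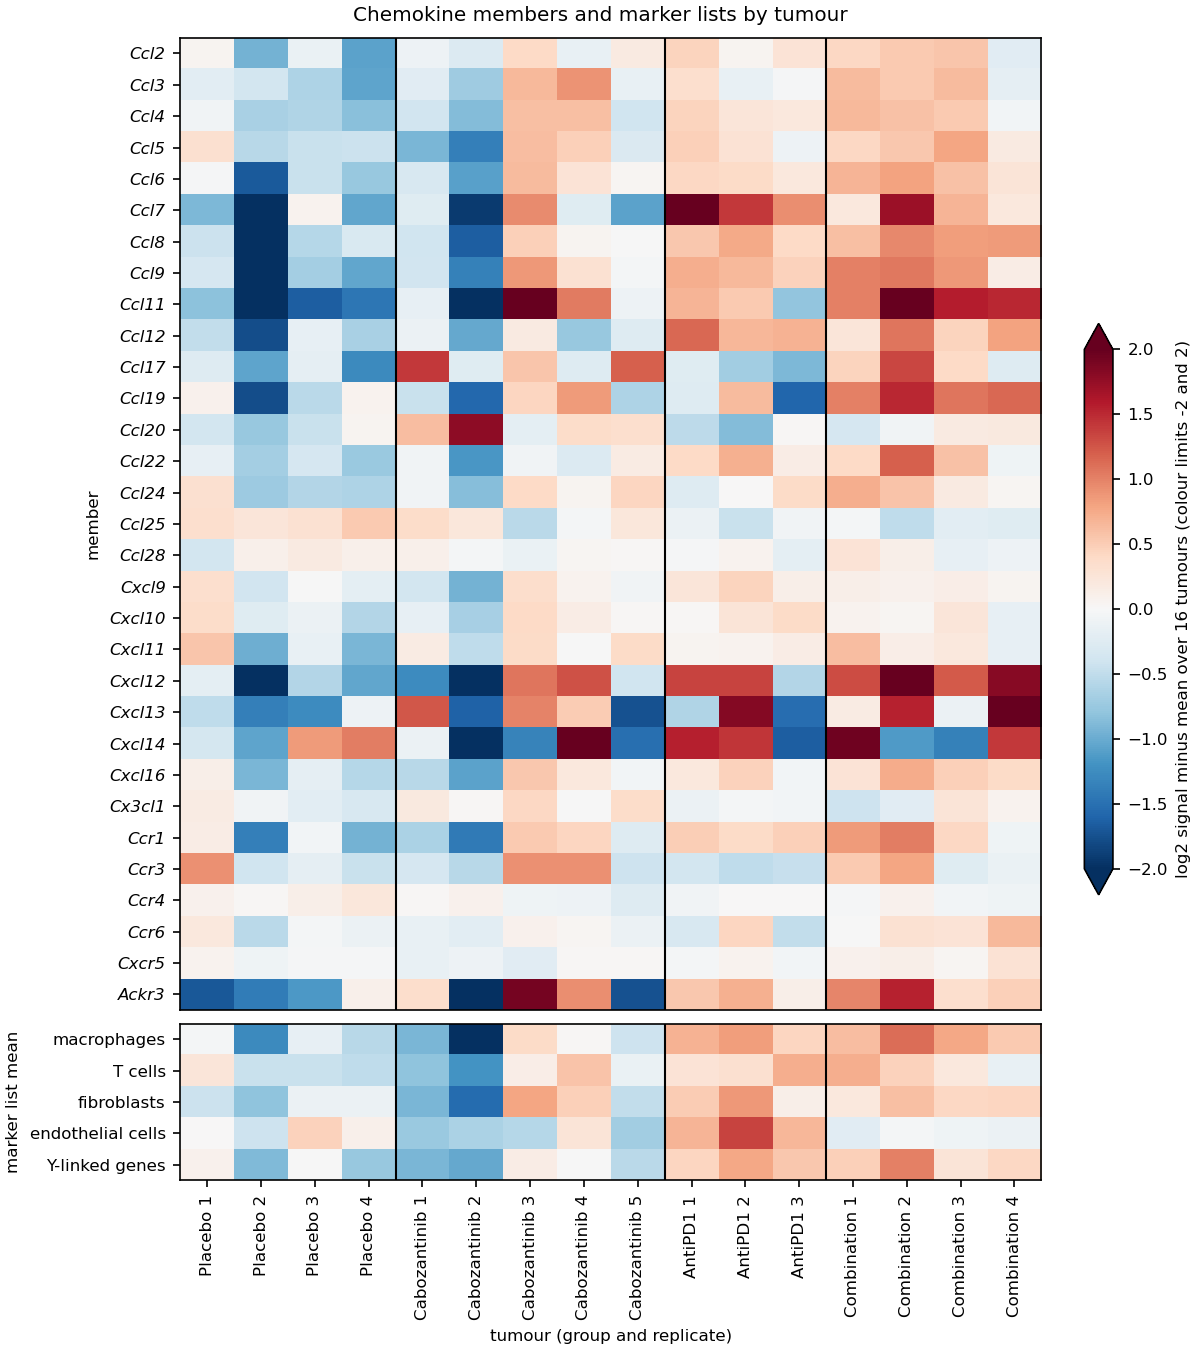
Log2 signal of each of the 31 genes (rows, upper panel) and mean of 5 marker lists (lower panel) in each of the 16 tumours (columns, by group), as a deviation from the row's mean over all tumours, with colours limited at -2 and 2. Most rows are blue in Placebo replicate 2 and Cabozantinib replicate 2 (mean deviations -1.06 and -0.98), and the rows of Ccl7, Ccl8, Ccl9 and Ccl12 are red in all 7 tumours that received the antibody.

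Against Placebo, 8 chemokines rose in Combination tumours and 1 fell. Those that rose were Ccl2, Ccl4, Ccl6, Ccl8, Ccl9, Ccl11, Ccl12 and Ccl22, and Ccl25 fell. Among all genes, 3.71% rose and 6.64% fell. The median difference of the 31 genes was 0.86, with 29 above 0, beside -0.02 over all genes. At an unadjusted p under 0.05 there were 20 of 31 genes, beside 4988 of 17097. The 9 calls became 0 without Placebo replicate 2, Placebo replicate 4 or Combination replicate 2, 1 (Ccl12) without Placebo replicate 3, 4 without Combination replicate 3, 5 without AntiPD1 replicate 1 or Combination replicate 1, and 15 without Cabozantinib replicate 2. They became 8 without the 2 tumours highest in adipocyte genes, and 0 without all 3, a choice made after the data were seen, which leaves 2 Combination tumours; the limma fit then had 14 of 31 at an unadjusted p under 0.05 and a median of 0.73. Without Placebo replicate 2 or Combination replicate 2, the calls over all genes fell to 61 and 42. For the other fits with tumours left out, the calls over all genes are not given.

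Averaged over both cabozantinib states, the antibody went with a rise of 10 genes and a fall of 1 (7 tumours with it, 9 without). Ccl7, Cxcl12 and Ccr1 passed here beside Ccl2, Ccl4, Ccl6, Ccl8, Ccl9, Ccl12 and Ccl22, Ccl11 did not pass, and Ccl25 fell again. Over all genes 8.33% rose and 9.66% fell. The median difference was 0.54 with 25 of 31 above 0, beside -0.03 over all genes, and 15 of 31 had an unadjusted p under 0.05, beside 5700 of 17097. The 11 calls became 2 (Ccl7 and Ccl12) without AntiPD1 replicate 2, 5 without Placebo replicate 4 or Combination replicate 2, 6 without Placebo replicate 2, AntiPD1 replicate 1 or Cabozantinib replicate 1, and 7 without Cabozantinib replicate 5, Combination replicate 1 or Combination replicate 3. They became 5 without the 3 muscle-rich tumours and 6 without the 2 tumours highest in adipocyte genes. Without all 3 adipocyte-rich tumours they became 0 in limma, with 11 of 31 at an unadjusted p under 0.05 and a median of 0.43. For these fits with tumours left out, the calls over all genes are not given.

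Cabozantinib averaged over the antibody gave 0 calls in limma, where 0.86% of all genes rose and 1.26% fell. Of the 31 genes, 25 were above 0, with a median of 0.28 beside 0.0008 over all genes, and 5 had an unadjusted p under 0.05, beside 2753 of 17097. Leaving out Cabozantinib replicate 2 gave 2 calls (Ccl11 and Ccl17), and leaving out Cabozantinib replicate 4 or Combination replicate 4 gave 1 (Ccl17). Without the 2 tumours highest in adipocyte genes 1 gene passed (Ccl11), and without all 3 none did, with 7 at an unadjusted p under 0.05. The calls over all genes in the fits with tumours left out are not given.

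The single-step comparisons had few calls. Cabozantinib against Placebo gave 0 in limma, with 8 of 31 at an unadjusted p under 0.05 and a median of 0.37, where 0.111% of all genes rose and 0.146% fell. AntiPD1 against Placebo gave 0, with 11 at an unadjusted p under 0.05 and a median of 0.50, where 0.0175% rose and 0.0117% fell. Combination against Cabozantinib gave 0, with 8 unadjusted and a median of 0.52, where 0.00585% rose and 0% fell, and it gave 3 (Ccl8, Ccl12 and Ccl25) without Cabozantinib replicate 3. The calls over all genes without that tumour are not given. Combination against AntiPD1 gave 0, with 2 unadjusted and a median of 0.15, where 0.00585% rose and 0.228% fell. The interaction of the drugs, which tests for a departure from additive effects, gave 0 with 0 at an unadjusted p under 0.05 and a median of -0.13, where 0% of all genes rose and 0% fell. Further differences of at least 1 that did not pass were, in AntiPD1 against Placebo, 1.96 ± 1.06 for Cxcl12, 1.71 ± 0.47 for Ccl9, 1.49 ± 0.77 for Ackr3, 1.42 ± 0.45 for Ccl8, 1.06 ± 0.37 for Ccl6 and 1.01 ± 0.45 for Ccr1 (SE; adjusted p = 0.134 to 0.317). In Combination against Cabozantinib they were 2.29 ± 0.93 for Cxcl12, 1.48 ± 0.74 for Ccl11, 1.17 ± 0.79 for Cxcl13, 1.12 ± 0.39 for Ccl8 and 1.04 ± 0.31 for Ccl12 (adjusted p = 0.0890 to 0.407). In Combination against AntiPD1 they were 1.41 ± 0.84 for Ccl11, 1.14 ± 0.90 for Cxcl13 and 1.09 ± 0.44 for Ccl17 (adjusted p = 0.593 to 0.878). The comparisons with Placebo share its 4 tumours, so their values are not independent of each other.

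**Figure D2:**
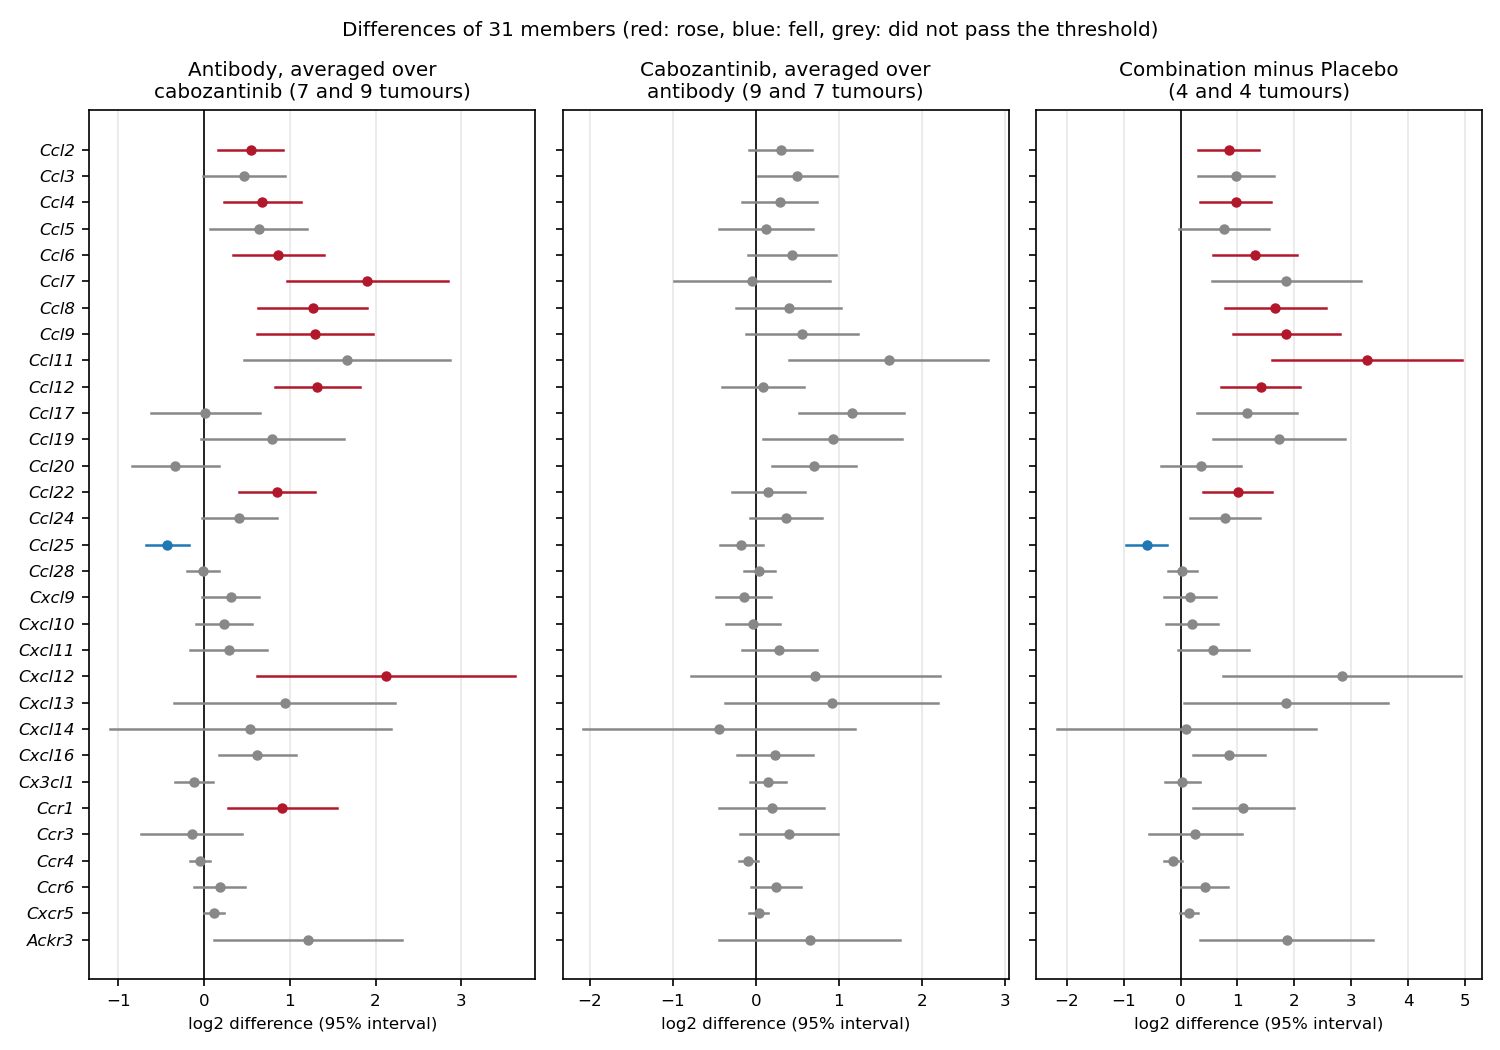
Log2 difference with its 95% interval (horizontal axis) of each of the 31 genes (rows) in the antibody averaged over cabozantinib, cabozantinib averaged over the antibody, and Combination minus Placebo, with genes that rose in red, genes that fell in blue and the others in grey. The first panel holds 10 red and 1 blue gene, the second 0 of either, and the third 8 red and 1 blue.

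Some markers of host cells moved with the same groups. The mean of 9 measured macrophage markers of 10 listed ran from 8.76 to 10.00 in Placebo, 7.97 to 10.42 in Cabozantinib, 10.47 to 10.87 in AntiPD1 and 10.56 to 11.15 in Combination, so the tumours with the antibody lay above all those without. All 9 rose with the antibody averaged over cabozantinib, and 3 of 9 (Cd14, Cd68 and Mrc1) rose in Combination against Placebo. None of the 9 was at or under 4.92 in any group. The mean of 3 Y-linked genes, in male hosts, ran from 5.44 to 6.42 in Placebo, 5.31 to 6.48 in Cabozantinib, 6.75 to 7.10 in AntiPD1 and 6.58 to 7.33 in Combination. With the antibody averaged, 6 of 10 endothelial markers (Cdh5, Emcn, Pecam1, Plvap, Tek and Vwf), 4 of 9 fibroblast, 2 of 6 neutrophil (Csf3r and Mmp8), 2 of 7 B cell (Cd22 and Ms4a1), 1 of 6 dendritic cell (Fscn1) and 1 of 9 T cell markers (Cd5) rose, and 0 of these fell. Over all genes 8.33% rose and 9.66% fell, and a count of 1 in a list this short does not stand out from that share. At an unadjusted p under 0.05 there were 7 of 9 T cell and 3 of 6 dendritic cell markers, beside 5700 of 17097 genes. In Combination against Placebo, Cdh5, Emcn, Kdr and Tie1, 4 of the 10 endothelial markers, fell and Tek rose, while 2 of 6 neutrophil, 1 of 9 fibroblast (Lum) and 1 of 7 B cell markers (Cd22) rose. In that comparison 3.71% of all genes rose and 6.64% fell. The endothelial mean ran from 5.28 to 6.16 in Placebo, 4.95 to 5.96 in Cabozantinib, 6.36 to 7.04 in AntiPD1 and 5.48 to 5.66 in Combination, which lay within the Placebo range. With cabozantinib averaged 5 of 10 endothelial markers fell, beside 1.26% of all genes. Tek was at or under 4.92 in every group but AntiPD1, and Tie1 in both groups with cabozantinib. The mean of 10 liver genes of the tumour line ran from 9.11 to 9.78 in Placebo, 9.11 to 10.33 in Cabozantinib, 9.23 to 9.42 in AntiPD1 and 8.55 to 9.95 in Combination, where 3 of 4 tumours lay below all 12 others. Alb and Trf fell in Combination against Placebo and Trf with the antibody averaged, with 4 and 7 of 10 at an unadjusted p under 0.05 and medians of -0.29 and -0.43. The part of these markers in the chemokine differences was not tested. Both marker means used as covariates below were higher in every tumour with the antibody than in any without it. Such fits cannot separate the markers from the antibody. With the mean of the macrophage markers as a covariate, a choice made after the data were seen, 0 of 31 genes passed in Combination against Placebo and 0 with the antibody averaged. With the mean of the Y-linked genes as a covariate both counts were also 0, and over all genes the calls were then 1 and 0. The calls over all genes with the macrophage covariate are not given. Its counts of 0 are therefore not shown to be particular to the 31 genes.

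Ccl2, Ccl7, Ccl12 and Ccl8 are the monocyte chemoattractants of the chromosome 11 cluster. Ccl2, Ccl7 and Ccl12 act through CCR2, which brings monocytes out of the marrow and into tissue, and mouse Ccl8 is known to act through CCR8. Ccl12 read 8.18, 6.89, 8.49 and 8.02 in Placebo, 8.55, 7.63, 8.84, 7.90 and 8.40 in Cabozantinib, 9.81, 9.32 and 9.36 in AntiPD1, and 8.90, 9.73, 9.10 and 9.47 in Combination. All 7 tumours with the antibody were above all 9 without it, with a narrow gap between 8.84 and 8.90. The difference with the antibody averaged was 1.32 ± 0.23 (SE; adjusted p = 0.0101), or 2.5-fold, and Combination exceeded Placebo by 1.40 ± 0.32 (adjusted p = 0.0229). The first call held in each of the 16 fits that left out 1 tumour but not without the 3 adipocyte-rich tumours, and the second was lost without Placebo replicate 2, Placebo replicate 4 or Combination replicate 2. In AntiPD1 against Placebo the difference was 1.60 ± 0.35 (adjusted p = 0.111), with 3 of 3 tumours above all Placebo tumours.

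Ccl7 read 7.21, 5.35, 8.18 and 7.07 in Placebo, 7.86, 6.20, 9.06, 7.86 and 7.04 in Cabozantinib, 10.10, 9.52 and 9.04 in AntiPD1, and 8.33, 9.81, 8.79 and 8.32 in Combination. It was high in all tumours with the antibody, but Cabozantinib replicate 3 reached into their range, so 3 of 7 lay above every tumour without it. The rise with the antibody averaged was 1.90 ± 0.44 (adjusted p = 0.0156), or 3.74-fold, and held in each of the 16 fits that left out 1 tumour but not without the 3 adipocyte-rich tumours. AntiPD1 exceeded Placebo by 2.60 ± 0.66 (adjusted p = 0.127), Combination exceeded Placebo by 1.86 ± 0.61 (adjusted p = 0.0642) and Combination exceeded Cabozantinib by 1.21, none of which passed. The interaction of the drugs was -1.39 for Ccl7, below 0 and not past the threshold.

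Ccl8 read 11.49, 9.82, 11.36 and 11.62 in Placebo, 11.53, 10.28, 12.40, 11.98 and 11.92 in Cabozantinib, 12.46, 12.68 and 12.33 in AntiPD1, and 12.53, 12.89, 12.76 and 12.77 in Combination. The 4 Combination tumours were above all Placebo and Cabozantinib tumours, and 6 of the 7 with the antibody were above all 9 without it. The difference was 1.67 ± 0.41 for Combination against Placebo (adjusted p = 0.0289), or 3.17-fold, and 1.27 ± 0.30 with the antibody averaged (adjusted p = 0.0158). Placebo replicate 2 was the low end, and the first call was lost without it, without Placebo replicate 3 or 4, or without Combination replicate 2. The second was lost only without AntiPD1 replicate 2 among the 16 fits that left out 1 tumour.

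Ccl2, the founding monocyte chemoattractant, read 9.96, 8.97, 9.78 and 8.83 in Placebo, 9.81, 9.64, 10.31, 9.75 and 10.08 in Cabozantinib, 10.35, 9.96 and 10.18 in AntiPD1, and 10.33, 10.44, 10.47 and 9.68 in Combination. Placebo split into a higher and a lower pair, and Combination replicate 4 lay within the Placebo range. The rise was 0.84 ± 0.25 against Placebo (adjusted p = 0.0459), or 1.79-fold, and 0.54 ± 0.18 with the antibody averaged (adjusted p = 0.0489). Both calls were near the threshold. Of the 16 fits that left out 1 tumour, the first held in 5, those without Placebo replicate 1, Cabozantinib replicate 2, 3 or 4, or Combination replicate 4, and the second in 4, those without Placebo replicate 1 or 3, Cabozantinib replicate 3 or Combination replicate 4.

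**Figure D3:**
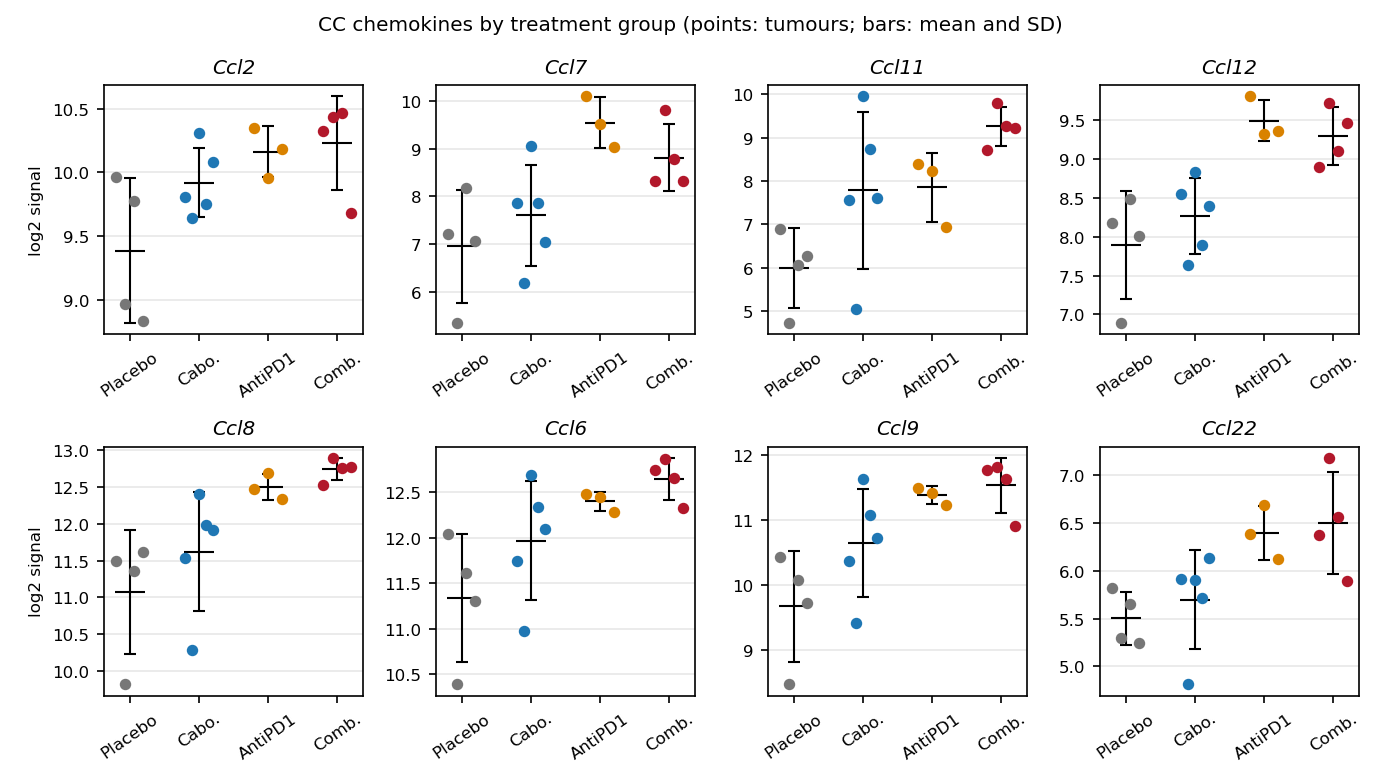
Log2 signal (vertical axis) of 8 CC ligands in each tumour (points) of the 4 groups (horizontal axis), with the group mean and SD. Ccl12 lies between 8.90 and 9.81 in the 7 tumours with the antibody and between 6.89 and 8.84 in the 9 without, whereas Ccl11 spans 5.04 to 9.96 under cabozantinib alone.

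Ccl11 and Ccl24 are eotaxins, which attract eosinophils through CCR3. Ccl11 read 6.90, 4.73, 6.07 and 6.27 in Placebo, 7.55, 5.04, 9.96, 8.75 and 7.61 in Cabozantinib, 8.39, 8.24 and 6.93 in AntiPD1, and 8.73, 9.81, 9.28 and 9.23 in Combination. All 4 Combination tumours were above all Placebo and AntiPD1 tumours, and the Cabozantinib group spanned nearly the whole range. Combination exceeded Placebo by 3.27 ± 0.78 (adjusted p = 0.026), or 9.65-fold, the largest difference of the 31 genes in that comparison. The call was lost without Placebo replicate 2, 3 or 4 or Combination replicate 2.

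Each drug alone gave a Ccl11 difference of similar size that did not pass. It was 1.79 ± 0.74 for Cabozantinib against Placebo (adjusted p = 0.321) and 1.86 for AntiPD1 against Placebo (adjusted p = 0.249). Averaged over the other drug, the differences were 1.60 ± 0.56 for cabozantinib (adjusted p = 0.162) and 1.67 ± 0.56 for the antibody (adjusted p = 0.0525). With the macrophage covariate Ccl11 passed in Cabozantinib against Placebo (adjusted p = 0.00247), and in the 28 other settings it did not (adjusted p = 0.0672 to 0.588).

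Ccl24 read 11.30, 10.26, 10.39 and 10.36 in Placebo, 10.91, 10.13, 11.37, 11.04 and 11.41 in Cabozantinib, 10.73, 10.98 and 11.35 in AntiPD1, and 11.70, 11.55, 11.15 and 11.01 in Combination. Placebo replicate 1 stood with the treated tumours, and Ccl24 passed in 0 of the 8 comparisons. The receptor Ccr3 lay between 4.24 and 5.71 over the 16 tumours, near background. Of 6 measured eosinophil markers, Epx, Prg3 and Il5ra were at or under 4.92 in all 4 groups and Prg2 in all but AntiPD1, and 0 of 6 rose in Combination against Placebo or with the antibody averaged, with 1 and 0 at an unadjusted p under 0.05.

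Ccl3, Ccl4 and Ccl5 attract T cells, natural killer cells and macrophages, and Ccl3 and Ccl5 act on CCR1. Ccl4 read 8.39, 7.81, 7.86 and 7.61 in Placebo, 8.07, 7.59, 9.05, 9.06 and 8.06 in Cabozantinib, 8.91, 8.70 and 8.67 in AntiPD1, and 9.11, 9.04, 8.98 and 8.41 in Combination. Cabozantinib replicates 3 and 4 lay with the antibody-treated tumours and the other 3, at 7.59 to 8.07, were close to Placebo. The rise was 0.97 ± 0.29 in Combination against Placebo (adjusted p = 0.0494) and 0.68 ± 0.21 with the antibody averaged (adjusted p = 0.039). Of the 16 fits that left out 1 tumour, the first call held in the same 5 as that of Ccl2, and the second in 4, those without Placebo replicate 1, Cabozantinib replicate 3 or 4, or Combination replicate 4. Ccl3 read 8.05, 7.89, 7.64 and 7.20 in Placebo and 8.89, 8.78, 8.88 and 8.09 in Combination, and Ccl5 read 11.43, 10.55, 10.66 and 10.68 against 11.52, 11.65, 11.90 and 11.29. For Ccl3 the groups did not overlap, for Ccl5 Placebo replicate 1 reached above Combination replicate 4, and neither gene passed.

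Ccl6 and Ccl9 are rodent chemokines that act through CCR1 on myeloid cells. Ccl9 read 10.44, 8.48, 10.08 and 9.72 in Placebo, 10.38, 9.42, 11.64, 11.08 and 10.73 in Cabozantinib, 11.50, 11.42 and 11.24 in AntiPD1, and 11.78, 11.83, 11.63 and 10.91 in Combination. Every tumour with the antibody was above every Placebo tumour, and Cabozantinib replicates 3 and 4 were within their range. It rose by 1.86 ± 0.44 in Combination against Placebo (adjusted p = 0.0252), or 3.63-fold, and by 1.30 ± 0.32 with the antibody averaged (adjusted p = 0.0173). The former call was lost without Placebo replicate 2, 3 or 4 or Combination replicate 2, and the latter without AntiPD1 replicate 2.

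Ccl6 read 12.04, 10.39, 11.61 and 11.31 in Placebo, 11.75, 10.97, 12.69, 12.33 and 12.09 in Cabozantinib, 12.47, 12.44 and 12.28 in AntiPD1, and 12.74, 12.86, 12.65 and 12.32 in Combination. As for Ccl9, tumours with the antibody were above all Placebo tumours, and Cabozantinib replicates 3 and 4 overlapped them. Ccl6 rose by 1.31 ± 0.34 against Placebo (adjusted p = 0.0344) and by 0.87 ± 0.25 with the antibody averaged (adjusted p = 0.029). The first call was lost without Placebo replicate 2, 3 or 4 or Combination replicate 1, 2 or 3, and the second without Placebo replicate 2 or 4, AntiPD1 replicate 1 or 2, Cabozantinib replicate 1 or Combination replicate 2.

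Ccr1, the receptor of Ccl3, Ccl5, Ccl6 and Ccl9 on monocytes and neutrophils, read 9.10, 7.57, 8.89 and 8.002 in Placebo, 8.31, 7.53, 9.47, 9.37 and 8.69 in Cabozantinib, 9.44, 9.33 and 9.42 in AntiPD1, and 9.79, 9.96, 9.36 and 8.86 in Combination. The AntiPD1 tumours lay above all Placebo tumours, and Combination replicate 4 lay within the Placebo range. It rose by 0.91 ± 0.30 with the antibody averaged (adjusted p = 0.0465). Of the 16 fits that left out 1 tumour the call held in 5, those without Placebo replicate 1 or 3, Cabozantinib replicate 3 or 4, or Combination replicate 4. The difference of 1.10 in Combination against Placebo did not pass (adjusted p = 0.0947).

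Ccl17 and Ccl22 are neighbouring genes whose products share the receptor CCR4, found on regulatory and type 2 helper T cells, and dendritic cells and macrophages are known sources of both. Ccl22 read 5.82, 5.30, 5.65 and 5.24 in Placebo, 5.92, 4.81, 5.91, 5.72 and 6.14 in Cabozantinib, 6.38, 6.69 and 6.13 in AntiPD1, and 6.38, 7.18, 6.57 and 5.89 in Combination. All tumours with the antibody were above all Placebo tumours, and 5 of 7 were above all 9 without it. It rose by 1.002 ± 0.29 in Combination against Placebo (adjusted p = 0.0417) and by 0.85 ± 0.21 with the antibody averaged (adjusted p = 0.017). Among the 16 fits that left out 1 tumour, the latter was lost only without AntiPD1 replicate 2, and the former without Placebo replicate 2, 3 or 4, AntiPD1 replicate 1 or Combination replicate 1, 2 or 3.

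Ccl17 was instead high in many tumours with cabozantinib. It read 7.84, 7.05, 7.91 and 6.82 in Placebo, 9.51, 7.85, 8.65, 7.84 and 9.29 in Cabozantinib, 7.85, 7.40 and 7.21 in AntiPD1, and 8.55, 9.43, 8.50 and 7.84 in Combination. Of the 9 tumours with cabozantinib, 6 were above all 7 without it, and the other 3 were between 7.84 and 7.85, inside the range of those without. The difference with cabozantinib averaged was 1.16 ± 0.30 (adjusted p = 0.0595), just outside the threshold, and it passed in 8 of 28 other settings. Against Placebo it was 1.22 ± 0.39 for Cabozantinib (adjusted p = 0.206) and 1.17 for Combination (adjusted p = 0.0782). With the antibody averaged, the interval of the Ccl17 difference ran from -0.62 to 0.65, and the cabozantinib interval for Ccl22 from -0.29 to 0.59. The difference between the responses of the pair was not tested. Ccr4 lay between 4.10 and 4.59 in all 16 tumours, at background.

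Cxcl9, Cxcl10 and Cxcl11 bind CXCR3 on activated T cells, and Cxcl11 is annotated by RefSeq as a transcribed pseudogene. They are described here, although none passed, as a choice made after their values were seen. Cxcl9 read 12.53, 11.81, 12.19 and 12.003 in Placebo, 11.84, 11.26, 12.55, 12.27 and 12.12 in Cabozantinib, 12.43, 12.64 and 12.32 in AntiPD1, and 12.32, 12.29, 12.34 and 12.25 in Combination. All groups overlapped, and Placebo replicate 1 exceeded all 4 Combination tumours. Cxcl10 read 11.26, 10.65, 10.77 and 10.31 in Placebo, 10.74, 10.23, 11.30, 11.05 and 10.92 in Cabozantinib, 10.92, 11.16 and 11.28 in AntiPD1, and 10.97, 10.94, 11.15 and 10.74 in Combination. Again Placebo overlapped every other group.

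With the antibody averaged, the difference was 0.31 for Cxcl9 (95% interval -0.02 to 0.64, adjusted p = 0.177), 0.24 for Cxcl10 (-0.09 to 0.56, adjusted p = 0.303) and 0.29 for Cxcl11 (-0.16 to 0.74, adjusted p = 0.366). These intervals hold both 0 and rises of up to 0.64, 0.56 and 0.74. The receptor gene Cxcr3, which is not one of the 33, rose by 1.21 ± 0.38 with the antibody averaged (adjusted p = 0.0392).

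**Figure D4:**
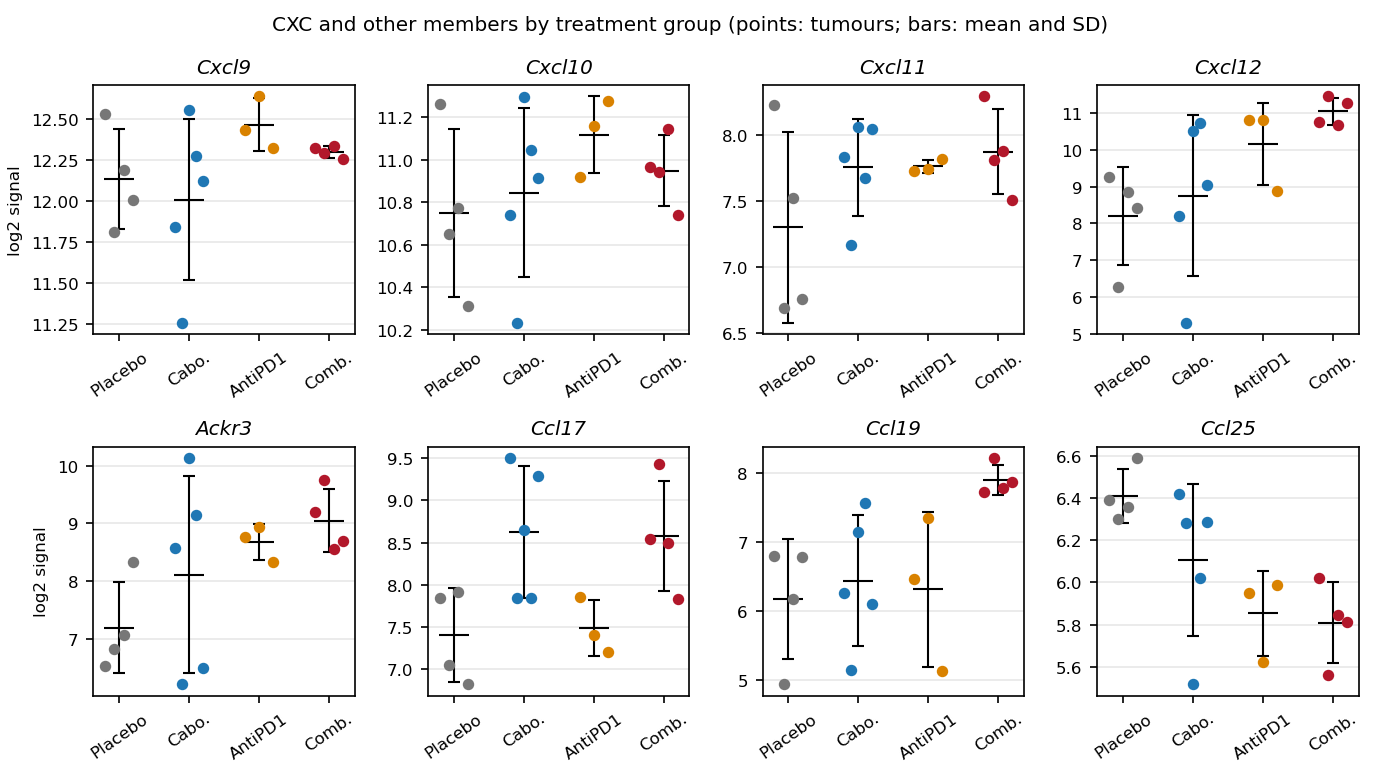
Log2 signal (vertical axis) of Cxcl9, Cxcl10, Cxcl11, Cxcl12, Ackr3, Ccl17, Ccl19 and Ccl25 in each tumour (points) of the 4 groups (horizontal axis), with the group mean and SD. Cxcl9 overlaps in all groups, the 6 highest Ccl17 values are all in tumours with cabozantinib, and Ccl25 is at 6.02 or less in all 7 tumours with the antibody.

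Cxcl12 retains stem cells and lymphocytes and comes mainly from stromal cells, and Ackr3 encodes an atypical receptor that binds and removes it. Cxcl12 read 9.26, 6.27, 8.86 and 8.42 in Placebo, 8.19, 5.29, 10.51, 10.72 and 9.05 in Cabozantinib, 10.80, 10.80 and 8.87 in AntiPD1, and 10.76, 11.45, 10.68 and 11.27 in Combination. All Combination tumours were above all Placebo tumours, AntiPD1 replicate 3 lay inside the Placebo range, and the Cabozantinib group spanned 5.29 to 10.72. It rose by 2.12 ± 0.70 with the antibody averaged (adjusted p = 0.0497), or 4.35-fold, and the difference of 2.84 in Combination against Placebo did not pass (adjusted p = 0.0739). Of the 16 fits that left out 1 tumour the call held in 5, those without Placebo replicate 1, AntiPD1 replicate 3 or Cabozantinib replicate 2, 3 or 4. The mean of its 3 probe sets gave 1.07 and did not pass (adjusted p = 0.0733, over a range of 0.00844 to 0.956 in 27 other settings), and 1 of those 3, with a 16-tumour mean of 4.39, was at background. The muscle-rich tumours AntiPD1 replicate 2, Cabozantinib replicate 4 and Combination replicate 4 were among the higher ones, at 10.80, 10.72 and 11.27.

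Ackr3 read 6.53, 6.82, 7.06 and 8.32 in Placebo, 8.57, 6.21, 10.13, 9.14 and 6.48 in Cabozantinib, 8.76, 8.93 and 8.33 in AntiPD1, and 9.19, 9.75, 8.56 and 8.69 in Combination. The 7 tumours with the antibody were above all 4 Placebo tumours, the closest pair being 8.33 and 8.32, and Cabozantinib held both the highest and the lowest tumour. The differences of 1.86 in Combination against Placebo (adjusted p = 0.1) and 1.21 with the antibody averaged (adjusted p = 0.109) did not pass.

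Ccl19, a ligand of CCR7 that draws dendritic and naive T cells to lymphoid tissue, read 6.79, 4.93, 6.17 and 6.77 in Placebo, 6.26, 5.14, 7.13, 7.56 and 6.10 in Cabozantinib, 6.45, 7.34 and 5.13 in AntiPD1, and 7.71, 8.21, 7.78 and 7.86 in Combination. The 4 Combination tumours were above all 12 others. The differences were 1.73 against Placebo (adjusted p = 0.0561), 1.46 against Cabozantinib (adjusted p = 0.123) and 1.58 against AntiPD1 (adjusted p = 0.527), and none passed. The interaction, 1.31, did not pass.

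Cxcl13, which draws B cells through CXCR5, read 5.39, 4.54, 4.63 and 5.79 in Placebo, 7.15, 4.29, 6.88, 6.40 and 4.15 in Cabozantinib, 5.30, 7.74 and 4.37 in AntiPD1, and 6.07, 7.43, 5.78 and 8.48 in Combination. Tumours within each treated group differed by over 2 units, and the difference of 1.85 between Combination and Placebo did not pass (adjusted p = 0.155). Cxcr5 stayed between 3.85 and 4.38, at background, and of 7 measured B cell markers 4 were at or under 4.92 in all 4 groups. Of the other 3, Cd22 rose in Combination against Placebo, where 4 of 7 had an unadjusted p under 0.05, and Cd22 and Ms4a1 rose with the antibody averaged, Ms4a1 from a level at or under 4.92 in Placebo and Cabozantinib. The shares of all genes that rose were 3.71% and 8.33%.

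Ccl25 was the one member that fell. It is best known as the thymic and gut ligand of CCR9, and it read 6.39, 6.30, 6.36 and 6.59 in Placebo, 6.42, 6.28, 5.52, 6.02 and 6.29 in Cabozantinib, 5.95, 5.62 and 5.99 in AntiPD1, and 6.02, 5.56, 5.85 and 5.81 in Combination. All 7 tumours with the antibody were below all 4 Placebo tumours, and Cabozantinib replicate 3 was the lowest of all. It fell by 0.60 ± 0.17 in Combination against Placebo (adjusted p = 0.0391) and by 0.43 ± 0.12 with the antibody averaged (adjusted p = 0.0281). The latter call was lost without Placebo replicate 4, AntiPD1 replicate 2 or Combination replicate 2, and the former without any of Placebo replicates 1 to 4, AntiPD1 replicate 1 or Combination replicate 2, 3 or 4.

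Ccl20, which attracts CCR6-bearing T and dendritic cells to epithelia, read 5.74, 5.35, 5.66 and 6.15 in Placebo, 6.71, 7.90, 5.91, 6.46 and 6.44 in Cabozantinib, 5.58, 5.24 and 6.13 in AntiPD1, and 5.77, 6.03, 6.27 and 6.29 in Combination. It was highest in Cabozantinib replicate 2, an adipocyte-rich tumour in which 12 other members were lowest. It passed in 0 of the 8 comparisons. Its receptor gene Ccr6 lay between 4.59 and 5.78, near background in every group but Combination.

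Cxcl14, whose receptor is unsettled, ranged from 3.59 to 8.48 and did so within groups, from 3.59 to 8.48 in Cabozantinib alone. Cxcl16, which is made both as a membrane form and as a soluble ligand of CXCR6, had a median of 10.55 in the 7 tumours with the antibody and 9.98 in the 9 without. Cx3cl1, the membrane-bound ligand of CX3CR1, lay between 8.46 and 9.28, and Ccl28, a mucosal ligand of CCR10, between 4.47 and 5.11. Cxcl14, Cxcl16, Cx3cl1 and Ccl28 passed in 0 of the 8 comparisons.

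Other genes of the chemokine system were read from a list of 22, of which 18 were measured. In Combination against Placebo 4 of 18 rose and 0 fell, beside 3.71% and 6.64% of all genes. They included Pf4, a platelet and macrophage CXC chemokine, by 1.72 ± 0.44 (adjusted p = 0.0309), Cmklr1, the chemerin receptor, by 1.16 ± 0.31 (adjusted p = 0.0354), and Ccrl2, an atypical receptor that presents chemerin, by 1.15 ± 0.33 (adjusted p = 0.044). The remaining gene, Ackr2, was at or under 4.92 in all 4 groups, so its difference is not given. With the antibody averaged 5 of 18 rose and 0 fell, beside 8.33% and 9.66% of all genes. Ccr2, the receptor of Ccl2, Ccl7 and Ccl12, rose by 1.25 ± 0.33 (adjusted p = 0.0235), Cmklr1 by 1.26 ± 0.22 (adjusted p = 0.0101) and Pf4 by 1.47 ± 0.31 (adjusted p = 0.0135), beside Ccrl2 and Cxcr3. With cabozantinib averaged, Cxcl17 rose by 1.03 ± 0.18 (adjusted p = 0.0115) and Cx3cr1, the receptor of Cx3cl1, fell by 0.73 ± 0.17 (adjusted p = 0.0443). Among all genes 0.86% rose and 1.26% fell there.

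Genes of the known inducers were read from 3 further lists. Among all genes 3.71% rose in Combination against Placebo and 8.33% with the antibody averaged. A count of 1 of 9 is near the latter, and no count below was tested against these shares. Of 9 measured genes of the interferon gamma axis, 0 passed in Combination against Placebo, with 2 at an unadjusted p under 0.05 in limma, and 1 (the kinase Jak1) rose with the antibody averaged. Of 9 in the type 2 cytokine axis, 4 rose in Combination against Placebo, namely Il4ra by 0.97, Il13ra1 by 0.66, Il33 by 0.60, and Gata3, which was at or under 4.92 in the other 3 groups, so its difference is not given. The cytokine genes Il4, Il5, Il13 and Tslp were at or under 4.92 in all 4 groups. Il4ra and Il13ra1 encode receptor chains for interleukins 4 and 13, Il33 encodes an alarmin and Gata3 the regulator of type 2 helper cells. Gata3 and Il4ra, 2 of the 9, also rose with the antibody averaged. Of 9 in the tumour necrosis factor and NF-kB axis, 2 rose in Combination against Placebo, the feedback inhibitors Nfkbia by 0.62 and Tnfaip3 by 0.63, and 2 (Nfkbia and Tnf) rose with the antibody averaged, Tnf being at or under 4.92 in Cabozantinib.

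Of 10 pairs listed, 9 were measured, 8 of a ligand with a receptor and 1 of the ligands Cxcl9 and Cxcl10, and each was compared over the 16 tumours after the group means were subtracted. By a two-sided permutation test within groups, adjusted over the 9 pairs, 4 passed. Cxcl9 and Cxcl10 had r = 0.85 (adjusted p = 0.0254) and rho = 0.80 (adjusted p = 0.021), and Ccl3 and Ccr1 had r = 0.76 (adjusted p = 0.0356) and rho = 0.77 (adjusted p = 0.021). Ccl11 and Ccr3 had r = 0.69 (adjusted p = 0.0477) and rho = 0.69 (adjusted p = 0.0539), and Ccl24 and Ccr3 had r = 0.66 (adjusted p = 0.0486) and rho = 0.55 (adjusted p = 0.127). Without the 2 tumours farthest from the median of the first gene, r was 0.79, 0.71, 0.66 and 0.57.

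The other pairs did not pass. Cxcl12 and Ackr3 had r = 0.63 (adjusted p = 0.162), which was 0.40 without the 2 farthest tumours, and the 4 pairs of Ccl17 or Ccl22 with Ccr4, Ccl20 with Ccr6 and Cxcl13 with Cxcr5 had r from -0.22 to 0.26. The count of 4 became 0 without Placebo replicate 1 or any of Cabozantinib replicates 1, 2, 3 and 4, 1 without Combination replicate 4, and 2 without Placebo replicate 3, Cabozantinib replicate 5 or Combination replicate 2. It was 0 without the muscle-rich tumours, without the 2 highest in adipocyte genes and without all 3. Ccr3 was near background, and the macrophage marker mean, which ran from 7.97 to 10.42 within Cabozantinib alone, varied over the same tumours, but its part in these relations was not tested.

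**Figure D5:**
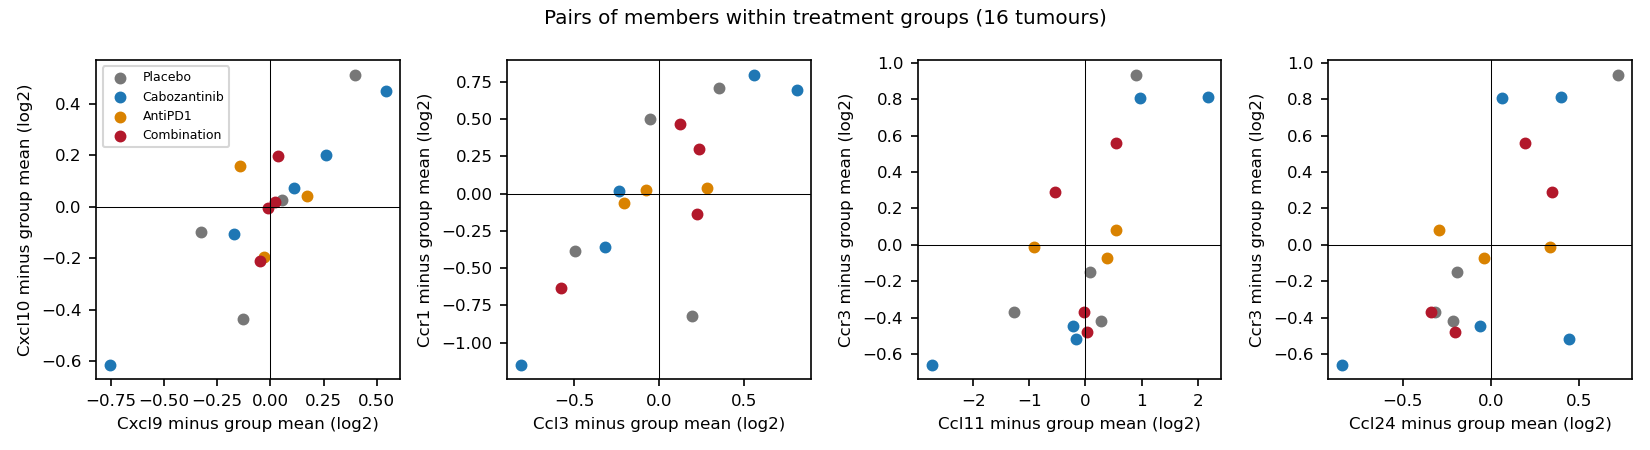
Deviation from the group mean (log2) of the second gene (vertical axis) against that of the first (horizontal axis) in 16 tumours (points, coloured by group) for Cxcl9 and Cxcl10, Ccl3 and Ccr1, Ccl11 and Ccr3, and Ccl24 and Ccr3. The pooled r is 0.85, 0.76, 0.69 and 0.66, and a Cabozantinib tumour holds the lower left corner of each plot.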

How the data were processed

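RNA of 16 whole tumours, 50 ng each, was hybridised by the authors to 1 Affymetrix mouse array per tumour, per the labels' protocols. The deposited table holds log2 signals per probe set. The submitters' processing notes name RMA and affy (version 1.62.0) without settings, and no genome build, scan date or batch is given in the sources used here. Of 45141 probe sets, 28898 had 1 gene in the platform annotation, 551 had several and 15588 had none, besides 104 controls. The probe set with the highest mean was kept, leaving 17097 genes. All were fitted with limma 3.58.1 (R 4.3.3; lmFit, eBayes, 4 group means, 12 residual and 2.47 prior degrees of freedom), with Benjamini-Hochberg adjustment within each of 8 comparisons. The members and lists were chosen with earlier results of these data known. Differences are given for members past the threshold or of at least 1 on the log2 scale, and up to 6 genes past it are named per other list. Pair tests used 100000 permutations. Simulated data with known changes and noise independent between genes were used to check the limma step. Such data lack the deviations that many genes share within a tumour, so they cannot check how calls depend on single tumours. Precision is limited by the number of arrays, which have no read depth. Alternatives were array weights, a trended prior, other probe sets, median scaling, a brightness filter, a block for the title number, only the groups compared, covariates, and tumours left out.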

Additional observations from a re-analysis of the deposited data

Results flagged for a closer look

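In 5 of 93 group and gene combinations tested, 1 tumour stood apart from the rest of its group by Dixon's criterion, and chance gives about 1 in 20. Ccl3 in Combination replicate 4 was low at 8.09, with the nearest of the others at 8.78. Ccl5 in Placebo replicate 1 was high at 11.43 against 10.68, and Ccl24 in the same tumour was high at 11.30 against 10.39. Ccl8 in Placebo replicate 2 was low at 9.82 against 11.36. Ccl28 in Placebo replicate 1 was low at 4.47 against 4.94, both near background.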

How the results depend on the processing

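Of 1662 recomputed values of single members, 1379 kept their direction and side of the threshold, 198 lost the call, 52 gained it and 33 changed sign. Only the 9 calls in Combination against Placebo and the 11 with the antibody averaged could lose a call. Most of the values that stayed on their side belong to differences that were not calls. The changes of sign came from the covariates only, and their cause was not tested. With the Y-linked mean as a covariate, AntiPD1 against Placebo gave -0.18 for Ccl11, -0.70 for Cxcl12 and -0.28 for Ccr1, Combination against Placebo gave -0.13 for Ccr1, and Combination against Cabozantinib gave -0.39 for Ccl7, -0.63 for Ccl11 and -0.46 for Cxcl12. The antibody averaged then gave -0.093 for Ccl4, -0.15 for Ccl6, -0.41 for Ccl11, -0.30 for Cxcl9, -0.30 for Cxcl10, -0.35 for Cxcl11, -0.58 for Cxcl12 and -0.40 for Ccr1. With the macrophage marker mean, added after seeing the data, AntiPD1 against Placebo gave -0.24 for Ccl11, -0.68 for Cxcl12 and -0.051 for Ccr1, Combination against Placebo gave -0.042 for Cxcl12 and -0.055 for Ccr1, and Combination against Cabozantinib gave -0.45 for Ccl7, -0.12 for Ccl8, -0.98 for Ccl11 and -0.79 for Cxcl12. The antibody averaged then gave -0.032 for Ccl4, -0.12 for Ccl6, -0.61 for Ccl11, -0.31 for Cxcl9, -0.25 for Cxcl10, -0.27 for Cxcl11, -0.74 for Cxcl12, -0.24 for Ccr1 and -0.15 for Ackr3. Counts of members past the threshold also moved. Unless stated above, the calls over all genes in the same fits are not given. These counts are therefore not shown to be particular to the members. For Combination against Placebo (9) they were 17 with array weights, 14 with only the groups compared (8 shared), 0 with either covariate, 0 without the 3 adipocyte-rich tumours (added after seeing the data), and 0 to 15 without 1 tumour. For the antibody averaged (11) they were 5 without the muscle-rich tumours, 6 without the 2 highest in adipocyte genes, 0 without all 3 adipocyte-rich ones, 0 with either covariate, and 2 to 15 without 1 tumour. For AntiPD1 against Placebo (0) array weights gave 11. For Cabozantinib against Placebo (0) the macrophage covariate gave 3, namely Ccl6, Ccl9 and Ccl11. For Combination against Cabozantinib (0) array weights gave 1, and leaving out 1 tumour gave 0 to 3. For cabozantinib averaged (0) the count was 1 with array weights, the brightness filter, the title-number block or without the 2 tumours highest in adipocyte genes, 2 with the Y-linked covariate, 6 with the macrophage covariate, and 0 to 2 without 1 tumour. Of the 4 pairs past the threshold, 2 remained with array medians subtracted, 0 without the muscle-rich tumours, the 2 highest in adipocyte genes or all 3, and 0 to 4 without 1 tumour. The labels do not say what the title numbers stand for. Number 12 and number 17 occur in Placebo and AntiPD1, number 18 in Cabozantinib and Combination, and number 11 for 2 Cabozantinib tumours. With the title number as a random block (a replicate block; correlation within a number -0.10), 10 members passed in Combination against Placebo, 9 with the antibody averaged, 1 (Ccl17) with cabozantinib averaged and 0 in the other 5 comparisons. Genes near background, such as Ccr3, Ccr4, Cxcr5 and Ccl28, can hide changes below that level.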

Other observations

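A second probe set of a gene can check the one kept, and 10 members had several. Over the 16 tumours the correlation with the kept probe set was 0.99 for Ccl9, 0.98 for Cxcl16, 0.97 for Cxcl13, 0.94 for Cxcl14, 0.87 for Ccr1 and 0.80 for Cx3cl1. For Cxcl12 it was 0.92 for 1 further probe set and -0.07 for another, which was at background. It was 0.50 for Ccl25 and 0.50 for Cxcl11, whose second probe sets had 16-tumour means of 4.57 and 4.21, at background. For Ccl28, at background on all 3 probe sets, it was 0.47 and 0.04. These are descriptions over 16 tumours that share arrays, so no p is given.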
